A study of Homo sapiens with 9 samples.

Results

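The comparison was between RKO cells that had both treatments of the study, a UHRF1 siRNA and the histone deacetylase inhibitor trichostatin A (TSA), and RKO cells that had neither. It used 4 of the 9 arrays of the series, namely siUHRF1 + TSA replicates 1 and 2 against siCONT replicates 1 and 2, and it was read outside the lists of S phase, G2/M and cancer-testis genes. RKO is an established colorectal cancer cell line. All 4 cultures were transfected with siRNA for 72 h, a non-targeting siRNA in siCONT and siUHRF1-1 (replicate 1) or siUHRF1-2 (replicate 2) in siUHRF1 + TSA. They were then given 300 nM TSA or, in siCONT, ethanol as the mock for a further 24 h. The treated arrays thus carried different siRNAs against the same gene, the depletion was transient, and no source says whether the siCONT arrays came from separate cultures, so the p-values measure a spread between arrays. Total RNA was read on 1-colour Agilent arrays, and 4 further siRNA arrays (siUHRF1 and siCONT + TSA, 2 each) entered the fit for their share in the estimate of the spread. The fit took this spread as equal in all groups, which it was not. The median absolute log2 difference between the 2 arrays was 0.07 in siCONT and 0.076 in siCONT + TSA. It was 0.261 in siUHRF1 and 0.19 in siUHRF1 + TSA, where the arrays differ in siRNA.

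UHRF1 binds hemimethylated DNA behind the replication fork and brings the maintenance methyltransferase DNMT1 there, and TSA blocks the deacetylases that remove acetyl groups from histones. DNA methylation and histone deacetylation both help to hold promoters silent. Most of the lists below follow stress and housekeeping programs. ATF4 is the transcription factor of the integrated stress response and drives genes of amino acid supply, and HIF drives the hypoxia genes.

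Each array's log2 signal was set relative to its own 75th percentile, and a level below is on that scale. It can be compared between arrays for 1 gene but not between genes. A difference below is the mean log2 level of the 2 siUHRF1 + TSA arrays minus that of the 2 siCONT arrays, given with the standard error (SE) and the limma p adjusted over all tested probes, and a gene was called at an adjusted p below 0.05. UHRF1 itself was at 2.69 and 2.69 on the siCONT arrays and -0.34 and -0.62 on the siUHRF1 + TSA arrays, and it fell by 3.17 (SE 0.14, adjusted p = 0.000119), so both treated arrays lay far below both controls. Its other tested probe moved the same way. All 8 siRNA arrays lay on 1 slide and had the same scan date, with between 46.8% and 49.6% of spots well above background and no saturated spot. TSA arrays lay in row 2 and mock arrays in row 1, siUHRF1 in columns 3 and 4 and siCONT in columns 1 and 2, so that position on the slide and the treatment cannot be told apart. Of the epithelial markers, KRT8 and KRT18 were above background on all 4 arrays, whereas CDH1 was above background on none of the 4 and EPCAM on 1 siCONT array only. The intestinal factors CDX1 and CDX2 were above background on all 4 arrays, but VIL1, CDH17 and LGALS4 were above it on none.

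In siUHRF1 + TSA against siCONT, 3626 of 13931 tested genes were called, 2410 higher (17.3% of the genes tested) and 1216 lower (8.73%). More than 2-fold changes were seen for 858 of the higher and 240 of the lower genes. Both siCONT arrays lay below background for 407 of the higher genes, and both siUHRF1 + TSA arrays for 49 of the lower genes. For those genes only a bound on the fold can be given, written as "at least": the mean of the bright group against that of the dim group with each dim array set to its lowest signal well above background, or to the probe's own signal where that was higher. These bounds belong to the main processing, and other settings gave smaller differences for several of these genes. Of the called genes, 897 were over 2-fold with both siRNAs, and the median absolute difference between the siRNAs over the called genes was 0.152. Leaving out siCONT replicate 1 lowered the counts to 835 higher and 287 lower genes, leaving out siCONT replicate 2 to 818 and 273, and leaving out either siCONT + TSA array to 1601 and 708. With each of the 8 siRNA arrays left out in turn, 707 genes stayed higher every time (5.08% of the genes tested) and 223 stayed lower (1.6%). The share of called genes that were higher was 66.5%, but 56.1% after quantile normalization and 55.7% with spike-in scaling of the arrays, which lowered the difference of every gene by 0.15. A list median between 0 and this size therefore turned negative with spike-in scaling, and differences are best read against the median of all tested genes, 0.066.

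**Figure D1:**
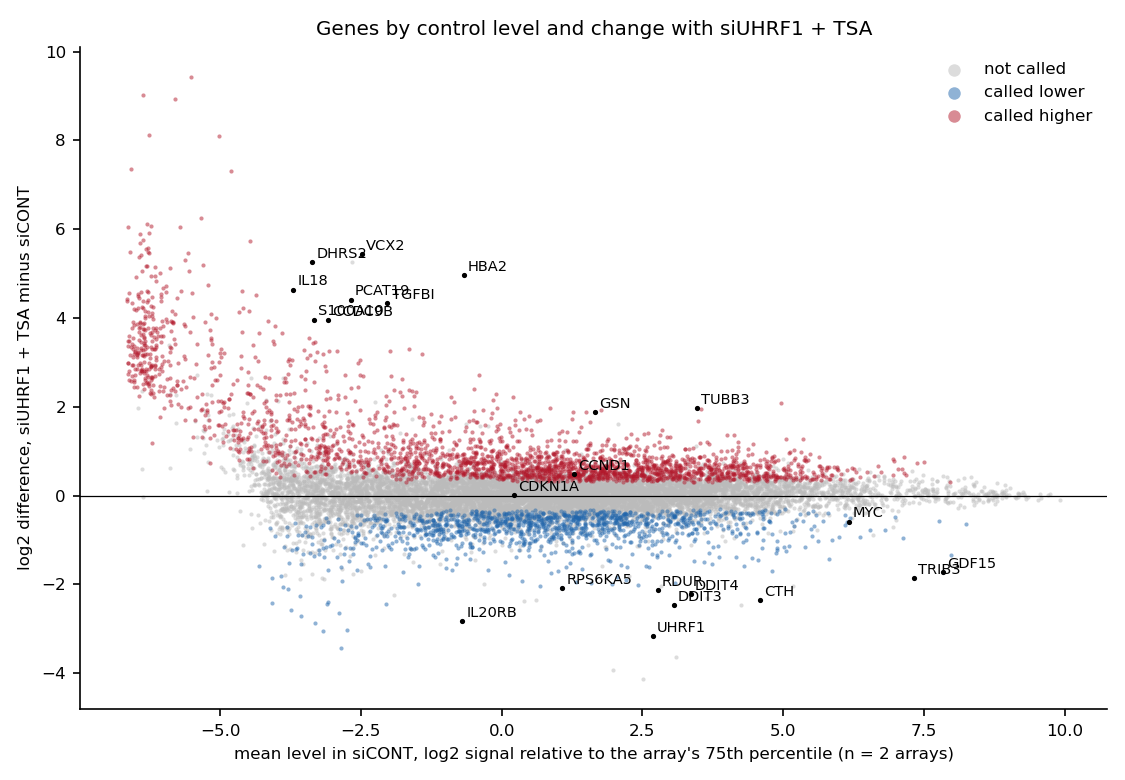
Every tested gene by its mean level in siCONT (x axis, log2 signal relative to the array's 75th percentile, 2 arrays) and its log2 difference in siUHRF1 + TSA (y axis). Red points are genes called higher, blue points genes called lower and grey points genes not called. The steep band at the left is made of genes below background in siCONT, and the stress genes DDIT3, DDIT4, CTH, TRIB3 and GDF15 fall from high control levels at the right.

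The largest rises among genes measured on all 4 arrays were in genes of quite different tissues. VCX2, an X-linked gene of a family expressed in testis, was at -2.43 and -2.53 on the siCONT arrays and 2.68 and 3.25 on the siUHRF1 + TSA arrays, and it rose by 5.44 (SE 0.26, adjusted p = 0.000154). DHRS2, a short-chain dehydrogenase, was at -3.26 and -3.47 on the siCONT arrays and 1.95 and 1.84 on the siUHRF1 + TSA arrays, and it rose by 5.26 (SE 0.13, adjusted p = 2.81e-05). HBA2, an alpha-globin gene, was at -0.69 and -0.66 on the siCONT arrays and 4.10 and 4.48 on the siUHRF1 + TSA arrays, and it rose by 4.97 (SE 0.23, adjusted p = 0.000137). The groups were far apart for all 3 genes, and both siRNAs gave nearly the same level of DHRS2. Near-identical copies of VCX2 and HBA2 (other VCX genes, HBA1) may share their probes' signal, so the member is uncertain. VCY, the Y-linked relative of VCX2, rose by 3.25 (SE 0.33, adjusted p = 0.00224). PCAT19, a long noncoding RNA, was at -2.65 and -2.71 on the siCONT arrays and 1.71 and 1.76 on the siUHRF1 + TSA arrays, and it rose by 4.42 (SE 0.16, adjusted p = 6.33e-05).

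The other large rises were in genes of various functions. IL18, a cytokine of the interleukin-1 family, was at -3.82 and -3.60 on the siCONT arrays and 1.33 and 0.53 on the siUHRF1 + TSA arrays, and it rose by 4.64 (SE 0.32, adjusted p = 0.000622). TGFBI, a matrix protein induced by TGF-beta, was at -1.96 and -2.10 on the siCONT arrays and 2.92 and 1.71 on the siUHRF1 + TSA arrays, and it rose by 4.34 (SE 0.39, adjusted p = 0.00153). SERPINF1, which encodes the anti-angiogenic factor PEDF, rose by 3.45 (SE 0.26, adjusted p = 0.000749). TGFBI and IL18 were higher with siUHRF1-1 than with siUHRF1-2, but both arrays lay above both controls. F2RL2, a protease-activated receptor, rose by 3.41 (SE 0.14, adjusted p = 8.82e-05), and by 1.75 in its lowest setting. The calcium-binding proteins S100A10 and S100A4 rose by 3.96 (SE 0.31, adjusted p = 0.000921) and 3.30 (SE 0.19, adjusted p = 0.000333). The rises of AKR1C3, an aldo-keto reductase of steroid and prostaglandin metabolism, and of PMEL, the fibril protein of melanosomes, were 3.26 (adjusted p = 0.000509) and 3.26 (adjusted p = 0.000841). HCLS1, an actin adaptor of blood cells, rose by 3.44 (SE 0.34, adjusted p = 0.00203), and CCDC9B rose by 3.95 (SE 0.16, adjusted p = 8.11e-05).

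Stress response genes stood out among the largest falls, with DDIT3, CTH, DDIT4, TRIB3 and SESN2 on the list of ATF4 and amino acid response genes. IL20RB, a subunit of the receptor for interleukin-20 and interleukin-24, fell most among them. It was at -0.73 and -0.67 on the siCONT arrays and -3.73 and -3.31 on the siUHRF1 + TSA arrays, and it fell by 2.82 (SE 0.34, adjusted p = 0.00392). DDIT3 (CHOP), the proapoptotic transcription factor of the stress response, was at 3.06 and 3.06 on the siCONT arrays and 0.95 and 0.24 on the siUHRF1 + TSA arrays, and it fell by 2.46 (SE 0.22, adjusted p = 0.00157). CTH, which makes cysteine from cystathionine, was at 4.57 and 4.60 on the siCONT arrays and 2.55 and 1.89 on the siUHRF1 + TSA arrays, and it fell by 2.36 (SE 0.21, adjusted p = 0.0015). For DDIT3 and CTH the array with siUHRF1-2 was the lower of the treated arrays, and the siCONT arrays lay close to each other. DDIT4 (REDD1), an inhibitor of mTORC1, was at 3.36 and 3.36 on the siCONT arrays and 1.498 and 0.77 on the siUHRF1 + TSA arrays, and it fell by 2.22 (SE 0.25, adjusted p = 0.00298). TRIB3, a pseudokinase induced by ATF4, was at 7.33 and 7.32 on the siCONT arrays and 5.75 and 5.18 on the siUHRF1 + TSA arrays, and it fell by 1.86 (SE 0.20, adjusted p = 0.00274). GDF15, a secreted stress cytokine, was at 7.84 and 7.83 on the siCONT arrays and 6.36 and 5.84 on the siUHRF1 + TSA arrays, and it fell by 1.73 (SE 0.18, adjusted p = 0.00227). For both genes the treated arrays lay below both controls. SESN2, a stress-induced inhibitor of mTORC1 signalling, fell by 1.84 (SE 0.26, adjusted p = 0.00576).

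The other large falls were in hypoxia genes, in regulators and in loci of little known function. CA9, the membrane carbonic anhydrase of hypoxic tumours, was at 0.64 and 0.74 on the siCONT arrays and -1.30 and -1.39 on the siUHRF1 + TSA arrays, and it fell by 2.03 (SE 0.11, adjusted p = 0.000248). ANGPTL4, an inhibitor of lipoprotein lipase, was at 1.97 and 1.94 on the siCONT arrays and 0.0027 and -0.06 on the siUHRF1 + TSA arrays, and it fell by 1.98 (SE 0.10, adjusted p = 0.000234). The treated arrays of both genes were nearly alike. MXD1, which competes with MYC for MAX, fell by 2.01 (SE 0.14, adjusted p = 0.000703), and RPS6KA5, a kinase that phosphorylates histone H3, fell by 2.08 (SE 0.29, adjusted p = 0.00559). TUBE1 (epsilon-tubulin, a centriole protein) fell by 1.97 (SE 0.13, adjusted p = 0.000577), and the phosphatase gene PTPDC1 fell by 1.96 (SE 0.16, adjusted p = 0.00108). The long noncoding RNA RDUR fell by 2.12 (SE 0.25, adjusted p = 0.00363), and OR2A9P, an olfactory receptor pseudogene, fell by 1.92 (SE 0.12, adjusted p = 0.000408). All 30 of these genes were called also when any of the 8 arrays was left out, as the rule for naming them required.

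**Figure D2:**
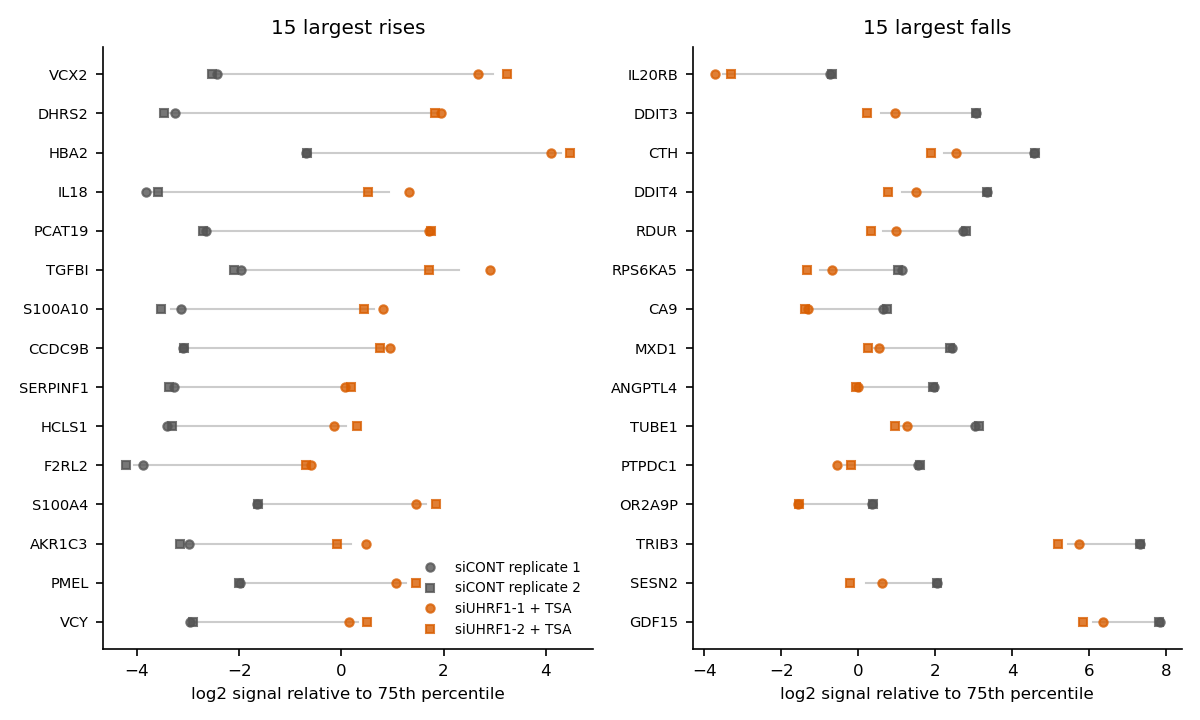
Level of each of the 15 largest rises (left) and 15 largest falls (right) on each of the 4 arrays, as log2 signal relative to the array's 75th percentile (x axis). Grey points are the siCONT arrays and orange points the siUHRF1 + TSA arrays, with a circle for replicate 1 and a square for replicate 2, and a line joins the group means. The groups do not overlap for any gene, and in most of the stress genes at the right, such as DDIT3 and SESN2, the array with siUHRF1-2 is the lower.

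The promoters of the leading risers and fallers are shown because DNA methylation, which UHRF1 maintains, sits on CpG dinucleotides. Each line holds the 250 bases before the start of the gene, 5′ to 3′ on its own strand, from RefSeq (GRCh38.p14), with every CpG in capitals. HBA2 and IL18 had no entry. They are VCX2 (chrX:8171268-8171517, minus strand), DHRS2 (chr14:23629865-23630114, plus strand), PCAT19 (chr19:41500650-41500899, minus strand), IL20RB (chr3:136957733-136957982, plus strand) and DDIT3 (chr12:57520515-57520764, minus strand).
VCX2: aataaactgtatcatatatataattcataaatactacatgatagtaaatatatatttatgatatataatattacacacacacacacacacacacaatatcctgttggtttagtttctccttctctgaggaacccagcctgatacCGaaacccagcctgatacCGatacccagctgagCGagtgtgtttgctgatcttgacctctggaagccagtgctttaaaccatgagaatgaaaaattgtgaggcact
DHRS2: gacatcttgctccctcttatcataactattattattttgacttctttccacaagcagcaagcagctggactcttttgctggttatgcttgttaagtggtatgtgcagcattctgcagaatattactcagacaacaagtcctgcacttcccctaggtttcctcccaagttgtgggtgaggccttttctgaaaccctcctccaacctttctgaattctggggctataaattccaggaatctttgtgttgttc
PCAT19: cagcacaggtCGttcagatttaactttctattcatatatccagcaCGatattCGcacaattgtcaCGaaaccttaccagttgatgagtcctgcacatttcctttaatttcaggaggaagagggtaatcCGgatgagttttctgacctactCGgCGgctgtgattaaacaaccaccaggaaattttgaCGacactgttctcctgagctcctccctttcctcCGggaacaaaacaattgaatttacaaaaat
IL20RB: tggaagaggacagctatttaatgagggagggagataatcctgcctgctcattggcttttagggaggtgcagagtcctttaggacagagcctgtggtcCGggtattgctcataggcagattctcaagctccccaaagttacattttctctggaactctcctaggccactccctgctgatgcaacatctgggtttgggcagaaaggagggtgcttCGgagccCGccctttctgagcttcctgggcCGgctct
DDIT3: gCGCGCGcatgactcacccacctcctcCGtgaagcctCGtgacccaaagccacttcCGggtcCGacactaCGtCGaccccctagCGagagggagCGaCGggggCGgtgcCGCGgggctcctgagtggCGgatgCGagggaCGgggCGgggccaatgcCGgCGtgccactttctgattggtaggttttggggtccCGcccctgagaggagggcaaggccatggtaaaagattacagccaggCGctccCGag
The windows of the risers VCX2, DHRS2 and PCAT19 held 3, 0 and 9 CpGs, and those of the fallers IL20RB and DDIT3 held 4 and 24. The median over all 27305 promoters in the table was 11.

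Over all tested genes with a promoter in that table (10818), the median window held 20 CpGs. It was 21 for the genes called lower, 20 for the genes called higher that were measured on both siCONT arrays, and 9 for the 281 genes called higher that were below background there. Fewer than 5 CpGs were found in 27.4% of the last group, against 9.33% of all tested genes. Genes below background in siCONT that were not called higher were poorer still in CpG, with a median of 6 over 5155 genes, 43.6% of which had fewer than 5. These values are a description of sequence, and methylation was not measured on these arrays.

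Of the genes often read as markers of deacetylase inhibition, some rose and others did not pass the test. GSN, which severs actin filaments, was at 1.61 and 1.70 on the siCONT arrays and 3.64 and 3.45 on the siUHRF1 + TSA arrays, and it rose by 1.89 (SE 0.11, adjusted p = 0.000324). TUBB3, the neuronal beta-tubulin, was at 3.47 and 3.48 on the siCONT arrays and 5.45 and 5.45 on the siUHRF1 + TSA arrays, and it rose by 1.98 (SE 0.10, adjusted p = 0.000188). Both genes rose by nearly the same amount with both siRNAs. CDKN1A, which encodes the CDK inhibitor p21, was at 0.25 and 0.21 on the siCONT arrays and 0.17 and 0.30 on the siUHRF1 + TSA arrays, a difference of 0.0094 that did not pass the test (SE 0.12, adjusted p = 0.965). The CDKN1A levels of the groups overlapped, and its sign turned under quantile normalization, under the shift by probes above background, under spike-in scaling, without siCONT replicate 2 and without siUHRF1 + TSA replicate 2. MYC was at 6.15 and 6.18 on the siCONT arrays and 5.79 and 5.38 on the siUHRF1 + TSA arrays, a difference of -0.58 that missed the threshold (adjusted p = 0.0515) although the groups did not overlap. The differences of CCND1, the G1 cyclin D1, and of TXNIP, an inhibitor of thioredoxin, were 0.49 (adjusted p = 0.117) and 0.22 (adjusted p = 0.149).

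The genes of the ATF4 and amino acid response had the largest share of members called lower among the 57 lists examined, and the lowest median. For this list, 31 of the 34 members on the array were tested, 1 (3.23%) was higher (below background in siCONT) and 24 (77.4%) were lower, and the median log2 difference was -1.02. Over all tested genes the median was 0.066, with 17.3% higher and 8.73% lower. In this and the later lists, a member below background on both siCONT arrays but above it on both siUHRF1 + TSA arrays had to be higher. ATF4 itself was at 7.75 and 7.79 on the siCONT arrays and 7.33 and 7.09 on the siUHRF1 + TSA arrays, and it fell by 0.56 (SE 0.14, adjusted p = 0.0348), although the call was lost without siCONT replicate 1 or 2, siCONT + TSA replicate 1 or 2 or siUHRF1 + TSA replicate 2. Several of its known targets fell by more. ASNS, asparagine synthetase, was at 8.01 and 7.96 on the siCONT arrays and 6.77 and 6.53 on the siUHRF1 + TSA arrays, and it fell by 1.33 (SE 0.16, adjusted p = 0.00401). The cystine transporter SLC7A11 was at 3.39 and 3.42 on the siCONT arrays and 2.11 and 1.76 on the siUHRF1 + TSA arrays, and it fell by 1.47 (SE 0.13, adjusted p = 0.00149). The serine synthesis enzymes PHGDH, PSAT1 and PSPH differed by -1.14, -0.92 and -0.42, and the transporters SLC6A9, SLC1A4, SLC7A1, SLC7A5 and SLC3A2 by -1.59, -1.40, -0.9952, -0.99 and -0.61, all of them called. Of these, PHGDH, SLC6A9 and SLC7A5 were called whichever array was left out. CHAC1, a glutathione-degrading target of ATF4, differed by -1.02 and did not pass (adjusted p = 0.0547), and neither did ATF5 (0.23) or ALDH18A1 (-0.0019). The list's only riser was CBS, cystathionine beta-synthase, which was below background on both siCONT arrays and was at least 14.1-fold higher (adjusted p = 0.00274). CTH, the next enzyme of the same pathway, was among the largest falls. With 1 array left out, the count of lower genes was 13 without siCONT replicate 2 and 14 without siCONT replicate 1. In all, 12 of the lower genes passed under every omission.

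**Figure D3:**
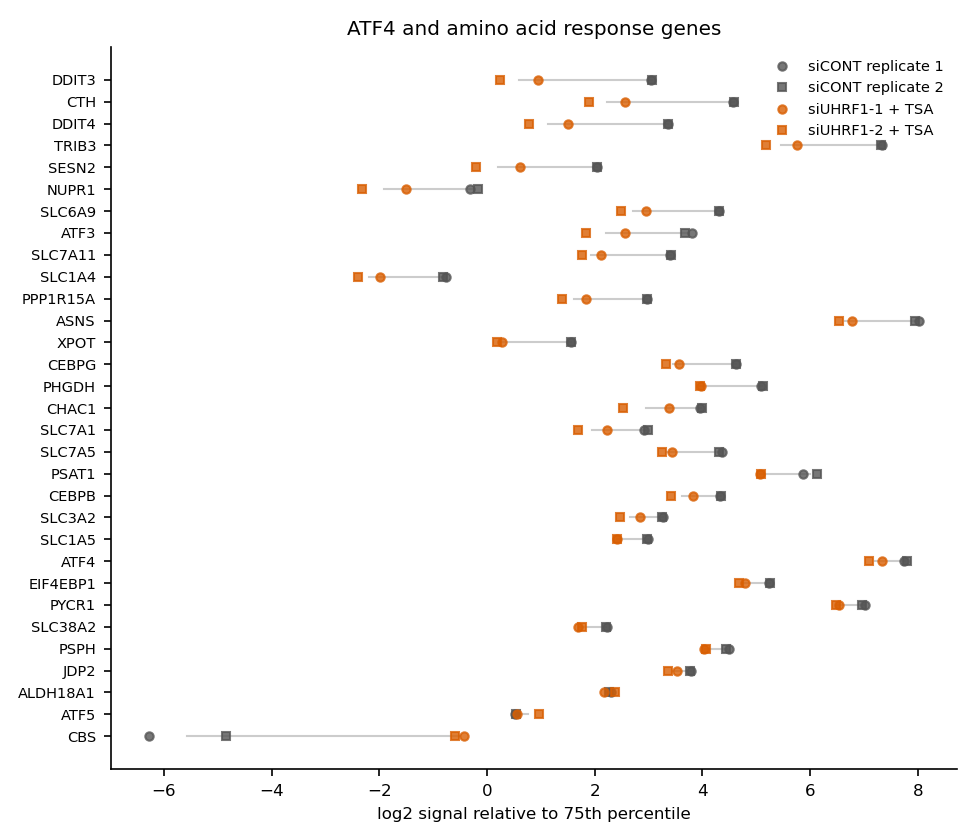
Levels of the 31 tested genes of the ATF4 and amino acid response on each of the 4 arrays, as log2 signal relative to the array's 75th percentile (x axis), ordered by their difference. Grey points are the siCONT arrays and orange points the siUHRF1 + TSA arrays, with a circle for replicate 1 and a square for replicate 2. From DDIT3 at the top to JDP2 nearly every gene is lower on both treated arrays, and CBS at the bottom is higher.

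The cytosolic aminoacyl-tRNA synthetases, which load amino acids onto tRNA and include known ATF4 targets, were lower in part. For them, all 22 members on the array were tested, 1 (4.55%) was higher and 9 (40.9%) were lower, and the median log2 difference was -0.35. WARS1, for tryptophan, was at 3.87 and 3.85 on the siCONT arrays and 2.75 and 2.20 on the siUHRF1 + TSA arrays, and it fell by 1.39 (SE 0.18, adjusted p = 0.00454). AARS1, for alanine, was at 3.12 and 3.18 on the siCONT arrays and 2.16 and 1.82 on the siUHRF1 + TSA arrays, and it fell by 1.16 (SE 0.14, adjusted p = 0.00347). IARS1, for isoleucine, fell by 1.02 (SE 0.10, adjusted p = 0.00191). On the other side of 0, RARS1, for arginine, rose by 0.39 (SE 0.10, adjusted p = 0.0368), a call that was lost without siCONT replicate 1 or 2, siCONT + TSA replicate 1 or 2 or siUHRF1 + TSA replicate 1 or 2. Differences of KARS1 and HARS1 were 0.03 and 0.12 and did not pass. For the synthetases the count of lower genes was 3 without siCONT replicate 2 and 4 without siCONT replicate 1. The one-carbon enzymes MTHFD2 and SHMT1 fell by 1.29 (SE 0.14, adjusted p = 0.00302) and 0.84 (SE 0.09, adjusted p = 0.0025). They stand in the list of nucleotide synthesis, where 40 of the 41 members on the array were tested, 4 (10%) were higher (1 of them from below background in siCONT) and 9 (22.5%) were lower, and the median log2 difference was -0.16. For nucleotide synthesis the count of higher genes was 0 without siCONT replicate 1 or 2, 1 without siUHRF1 + TSA replicate 1 and 2 without siCONT + TSA replicate 1 or 2 or siUHRF1 + TSA replicate 2, and the count of lower genes was 2 without siCONT replicate 1 or 2.

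The unfolded protein response of the endoplasmic reticulum, another branch of the stress response, had a median nearer to 0: 38 of the 39 members on the array were tested, 3 (7.89%) were higher and 5 (13.2%) were lower, and the median log2 difference was -0.10. XBP1, its spliced transcription factor, was at 5.39 and 5.40 on the siCONT arrays and 4.33 and 4.14 on the siUHRF1 + TSA arrays, and it fell by 1.16 (SE 0.10, adjusted p = 0.00155). HERPUD1, an adaptor of the degradation pathway, fell by 1.44 (adjusted p = 0.0295), a call lost without siCONT replicate 1 or 2 or siCONT + TSA replicate 1 or 2. SEC61B, a channel subunit for protein import, rose by 0.57 (adjusted p = 0.0068), which was lost without siCONT replicate 1 or 2. For this response the count of higher genes was 0 without siCONT replicate 1 or 2 and 1 without siCONT + TSA replicate 1 or 2 or siUHRF1 + TSA replicate 1 or 2, and the count of lower genes was 1 without siCONT replicate 1 or 2, 2 without siCONT + TSA replicate 1 or 2 or siUHRF1 + TSA replicate 1 and 3 without siUHRF1 + TSA replicate 2.

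The hypoxia response had the second highest share of lower genes. For them, 30 of the 33 members on the array were tested, 2 (6.67%) were higher (1 of them from below background in siCONT) and 13 (43.3%) were lower, and the median log2 difference was -0.43. VEGFA, the angiogenic factor, was at 1.83 and 1.87 on the siCONT arrays and 0.67 and 0.64 on the siUHRF1 + TSA arrays, and it fell by 1.20 (SE 0.18, adjusted p = 0.00702). ANKRD37 was at 1.25 and 1.16 on the siCONT arrays and -0.31 and -0.33 on the siUHRF1 + TSA arrays, and it fell by 1.53 (SE 0.12, adjusted p = 0.000855). PDK1, which diverts pyruvate from the mitochondria, fell by 1.27 (SE 0.11, adjusted p = 0.00115), and KDM3A, a histone demethylase induced by HIF, fell by 0.95 (SE 0.18, adjusted p = 0.0156). The call of VEGFA was lost without siCONT replicate 2, and that of KDM3A without siCONT replicate 1 or 2 or siUHRF1 + TSA replicate 1 or 2. HIF1A itself differed by 0.30 and did not pass (adjusted p = 0.48). EPAS1, which encodes HIF-2 alpha, fell by 0.49 (adjusted p = 0.0204), but not without siCONT replicate 1 or 2, siCONT + TSA replicate 1 or 2 or siUHRF1 + TSA replicate 2. Against the direction of the list, ARNT2, a dimer partner of HIF, rose by 0.82 (SE 0.11, adjusted p = 0.00472), and BNIP3, a mitophagy receptor below background in siCONT, was at least 2.88-fold higher. The call of BNIP3 was lost without siCONT replicate 1 or 2 or siUHRF1 + TSA replicate 2. For hypoxia genes the count of higher genes was 1 without siCONT replicate 1 or 2 or siUHRF1 + TSA replicate 2, and the count of lower genes was 5 without siCONT replicate 2, 6 without siCONT replicate 1 and 8 without siCONT + TSA replicate 1 or 2 or siUHRF1 + TSA replicate 2. The core of the hypoxia response element, ACGTG on either strand, was searched in the 250 bases before each start. It was present for 12 of the 23 tested list members with a promoter in the table (52.2%) and for 7 of the 12 called lower (58.3%), against 23.3% of all tested genes and 18.7% of all promoters. The list was written from genes driven by HIF, so its share is no independent evidence. The lower genes are part of this list, and their share was near that of the whole list. The 4 hypoxia genes with the largest falls each held it, as shown here with the match in capitals, read on the gene's strand, where CACGT is its reverse complement (GRCh38.p14, CA9 chr9:35673902-35673922, ANGPTL4 chr19:8363913-8363933, DDIT4 chr10:72273791-72273811, ANKRD37 chr4:185396690-185396710, all on the plus strand).
CA9: ttccaatgCACGTacagcccg
ANGPTL4: agaagagtCACGTctcccacg
DDIT4: cgttgcttACGTGcgcccgga
ANKRD37: gtttgtgtACGTGcggccgtg
The matches began 18, 234, 125 and 143 bases before the start, and ANKRD37 held 3 in all. A composite element of the C/EBP and ATF factors, TGATGNAAT on either strand, was present in the window of 0 of 26 ATF4 list members and in 0.444% of all tested genes. This string is too rare for 26 windows to tell the list from other genes, and sites outside the 250 bases were not searched.

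Single genes of the damage response and of apoptosis are given here without a count over a list. GADD45A, a DNA damage protein, was at 4.58 and 4.53 on the siCONT arrays and 3.33 and 2.88 on the siUHRF1 + TSA arrays, and it fell by 1.45 (SE 0.20, adjusted p = 0.00557). PMAIP1 (NOXA) and BBC3 (PUMA), proapoptotic BH3 proteins, fell by 0.96 (SE 0.12, adjusted p = 0.00405) and 0.82 (SE 0.11, adjusted p = 0.00513). In all 3 genes the direction was that of SESN2 and GDF15, described above. DDIT4 is on both the ATF4 and the hypoxia list. PLK2, a polo-like kinase, was at -0.46 and -0.52 on the siCONT arrays and 2.22 and 1.61 on the siUHRF1 + TSA arrays, and it rose by 2.41 (SE 0.30, adjusted p = 0.00402). TP53I3 also went against the direction of these genes and rose by 1.42 (SE 0.09, adjusted p = 0.000509). The difference of BAX, a pore-forming effector of apoptosis, was 0.12 and did not pass (adjusted p = 0.613). Of the BCL2 family, BAK1, an effector of apoptosis, rose by 0.80 (adjusted p = 0.00884), though not without siCONT replicate 1 or 2. Of the death receptors and caspases, TRADD, an adaptor of the TNF receptor, rose by 1.05 (SE 0.11, adjusted p = 0.00222), while the receptor FAS fell by 0.61 (adjusted p = 0.00797), a call lost without siCONT replicate 1 or 2.

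Among genes of protein quality control, the proteasome had the largest share of higher genes: all 45 members on the array were tested, 20 (44.4%) were higher and 2 (4.44%) were lower, and the median log2 difference was 0.34. ADRM1, a ubiquitin receptor of the 19S cap, was at 1.91 and 1.92 on the siCONT arrays and 2.79 and 2.74 on the siUHRF1 + TSA arrays, and it rose by 0.85 (SE 0.10, adjusted p = 0.00305). PSMD7, a subunit of the cap's lid, was at 3.94 and 3.99 on the siCONT arrays and 4.81 and 4.81 on the siUHRF1 + TSA arrays, and it rose by 0.84 (SE 0.09, adjusted p = 0.00268). PSMD3, another lid subunit, and PSMC4, an ATPase of the base, rose by 0.77 (SE 0.08, adjusted p = 0.00282) and 0.76 (SE 0.09, adjusted p = 0.00394). No member rose by as much as 2-fold, that is 1 on the log2 scale. The members that fell were NFE2L1, a transcription factor for proteasome genes (fell by 0.53, adjusted p = 0.0415), and the assembly chaperone PSMG1 (fell by 0.40, adjusted p = 0.0236), the first call lost without siCONT replicate 1 or 2, siCONT + TSA replicate 1 or 2 or siUHRF1 + TSA replicate 2 and the second without siCONT replicate 1 or 2, siCONT + TSA replicate 1 or 2 or siUHRF1 + TSA replicate 1. For the proteasome the count of higher genes was 4 without siCONT replicate 2, 5 without siCONT replicate 1, 11 without siUHRF1 + TSA replicate 1 and 12 without siCONT + TSA replicate 1 or 2.

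Among heat shock proteins, 39 of the 41 members on the array were tested, 14 (35.9%) were higher (3 of them from below background in siCONT) and 3 (7.69%) were lower, and the median log2 difference was 0.17. The inducible HSP70 gene HSPA1A lay under the background of the siCONT arrays and was at least 2.14-fold higher (adjusted p = 0.0013), with a near-identical copy, HSPA1B, that may share its signal. HSPB8, a small heat shock protein, was likewise at least 2.25-fold higher, but not called without siCONT replicate 1 or 2. CRYAB, a small heat shock protein of muscle and lens, rose by 1.11 (SE 0.23, adjusted p = 0.0198), a call lost without siCONT replicate 1 or 2 or siUHRF1 + TSA replicate 1 or 2. DNAJC6 (auxilin), which uncoats clathrin vesicles, fell by 0.92 (SE 0.12, adjusted p = 0.00522), against the direction of the list. For heat shock genes the count of higher genes was 1 without siCONT replicate 1 or 2, 7 without siUHRF1 + TSA replicate 2 and 9 without siCONT + TSA replicate 1 or 2, and the count of lower genes was 1 without siCONT replicate 1 or 2 and 6 without siUHRF1 replicate 1 or 2. Under spike-in scaling the median of this list was 0.022. Of the cytosolic chaperonin and its partner prefoldin, all 14 members on the array were tested, 6 (42.9%) were higher and 1 (7.14%) was lower, and the median log2 difference was 0.29, and the count of higher genes was 0 without siCONT replicate 1 or 2 and 3 without siCONT + TSA replicate 1 or 2. In the list of endocytosis and ESCRT genes, 61 of the 65 members on the array were tested, 15 (24.6%) were higher (1 of them from below background in siCONT) and 1 (1.64%) was lower, and the median log2 difference was 0.21. EHD1, a recycling ATPase, rose by 1.08 (SE 0.12, adjusted p = 0.00321), and EPN3, an epsin below background in siCONT, was at least 2.56-fold higher (adjusted p = 0.000632). For endocytosis the count of higher genes was 2 without siCONT replicate 1, 3 without siCONT replicate 2, 8 without siUHRF1 + TSA replicate 1 and 9 without siCONT + TSA replicate 1 or 2.

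The machinery of protein synthesis did not move as a unit. In ribosome biogenesis, all 81 members on the array were tested, 23 (28.4%) were higher and 1 (1.23%) was lower, and the median log2 difference was 0.28. RRS1, an assembly factor of the large subunit, was at 2.82 and 2.90 on the siCONT arrays and 4.41 and 4.28 on the siUHRF1 + TSA arrays, and it rose by 1.49 (SE 0.09, adjusted p = 0.000442), and UBTF, a factor of RNA polymerase I, rose by 0.89 (SE 0.11, adjusted p = 0.00433). By contrast, the 79 tested cytosolic ribosomal proteins had a median of 0.03, and 1 was called. It was RPL22, which was lower (-0.35, adjusted p = 0.0332), of which 2 of 3 probes had this sign and whose call was lost without siCONT replicate 1 or 2, siCONT + TSA replicate 1 or 2 or siUHRF1 + TSA replicate 1 or 2. For biogenesis genes the count of higher genes was 2 without siCONT replicate 1 or 2, 12 without siUHRF1 + TSA replicate 1 and 13 without siCONT + TSA replicate 1 or 2. Among splicing factors, SRSF3 rose by 1.09 (SE 0.10, adjusted p = 0.00151), and among the general factors of RNA polymerase II, HEXIM1, an inhibitor of the elongation kinase P-TEFb, rose by 0.76 (SE 0.09, adjusted p = 0.00325).

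Cytoskeletal genes were higher in part. Of the actin genes, 65 of the 75 members on the array were tested, 20 (30.8%) were higher (1 of them from below background in siCONT) and 2 (3.08%) were lower, and the median log2 difference was 0.29. CNN1, a calponin of smooth muscle, was at -1.48 and -1.57 on the siCONT arrays and 1.24 and 0.39 on the siUHRF1 + TSA arrays, and it rose by 2.33 (SE 0.28, adjusted p = 0.00363). MYL9, a myosin light chain, and MARCKS, an actin-binding protein of the membrane, rose by 1.23 (SE 0.12, adjusted p = 0.0019) and 1.18 (SE 0.09, adjusted p = 0.000948). For actin genes the count of higher genes was 7 without siCONT replicate 2, 8 without siCONT replicate 1 and 13 without siCONT + TSA replicate 1 or 2 or siUHRF1 + TSA replicate 1, and the count of lower genes was 0 without siCONT replicate 1 or 2 and 1 without siCONT + TSA replicate 1 or 2 or siUHRF1 + TSA replicate 1. Of tubulins and microtubule proteins, 42 of the 43 members on the array were tested, 11 (26.2%) were higher (1 of them from below background in siCONT) and 4 (9.52%) were lower, and the median log2 difference was 0.26. The beta-tubulin genes TUBB6, TUBB2A and TUBB rose together with TUBB3. TUBB6 was at 2.95 and 2.92 on the siCONT arrays and 4.28 and 4.22 on the siUHRF1 + TSA arrays, and it rose by 1.31 (SE 0.12, adjusted p = 0.00176). TUBB2A and TUBB rose by 1.03 (SE 0.12, adjusted p = 0.00384) and 0.69 (SE 0.09, adjusted p = 0.00421). Tubulin genes are alike in sequence, so their probes may share signal. For tubulins the count of higher genes was 5 without siCONT replicate 1, 7 without siCONT replicate 2 and 17 without siUHRF1 replicate 1 or 2, and the count of lower genes was 1 without siCONT replicate 1 or 2, siCONT + TSA replicate 1 or 2 or siUHRF1 + TSA replicate 1 or 2.

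In the list of mesenchymal and matrix genes, 49 of the 85 members on the array were tested, 19 (38.8%) were higher (6 of them from below background in siCONT) and 1 (2.04%) was lower, and the median log2 difference was 0.35. Over the 40 members measured on all 4 arrays the median was 0.24. VIM, the intermediate filament of mesenchymal cells, was at -0.39 and -0.43 on the siCONT arrays and 2.45 and 2.16 on the siUHRF1 + TSA arrays, and it rose by 2.71 (SE 0.12, adjusted p = 0.000135). COL5A1, a fibrillar collagen, was at -3.94 and -3.79 on the siCONT arrays and -1.22 and -1.40 on the siUHRF1 + TSA arrays, and it rose by 2.56 (SE 0.28, adjusted p = 0.00302). LOXL1, which crosslinks elastin, rose by 1.06 (SE 0.13, adjusted p = 0.00395). Both treated arrays of VIM lay far above both controls. COL1A2 was below background on both siCONT arrays and at least 4.06-fold higher (adjusted p = 2.81e-05). CCN1, a matricellular protein, fell by 0.94 (adjusted p = 0.00661), though not without siCONT replicate 2. For matrix genes the count of higher genes was 10 without siCONT replicate 1 or 2. COL1A1, COL1A2 and DCN are also markers of fibroblasts. Of 5 fibroblast markers, 2 were above background in siCONT and 4 in siUHRF1 + TSA, COL3A1 was above it on none of the 4 arrays, and the summed signal of the list, relative to the 75th percentile, was 0.271 and 0.239 in siCONT and 0.812 and 1.03 in siUHRF1 + TSA. Of 5 endothelial markers, VWF alone was called higher (adjusted p = 7.53e-05), through a probe that lay below background on both siCONT arrays and at -0.77 and -1.08 on the siUHRF1 + TSA arrays, so its size is not given. Another probe of VWF was above background on both siCONT arrays. CDH5 was above background on all 4 arrays and went the other way, by -0.49, without being called. PECAM1, KDR and TEK were above background on none of the 4 arrays. The sums over the list, VWF included, were 0.189 and 0.182 in siCONT against 0.705 and 0.572 in siUHRF1 + TSA. Among 5 leukocyte markers PTPRC was above background on 1 siCONT array and on both siUHRF1 + TSA arrays, CD14 on 1 siUHRF1 + TSA array, and CD3E on none. None of the tested leukocyte markers was called.

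Epithelial genes were called at shares near those of all tested genes, which were 17.3% higher and 8.73% lower. Of the 54 members on the array, 38 were tested, and the median log2 difference was -0.04. Among them 6 (15.8%) were higher (2 of them from below background in siCONT) and 4 (10.5%) were lower. KRT19, a keratin of simple epithelia, and JUP, plakoglobin of the junctions, lay under the background of the siCONT arrays and were at least 4.26-fold (adjusted p = 0.00146) and at least 2.84-fold (adjusted p = 0.00246) higher. OCLN, a tight junction protein, fell by 1.15 (SE 0.10, adjusted p = 0.00151), and GRHL1, an epithelial transcription factor, fell by 0.83 (SE 0.10, adjusted p = 0.00359). For epithelial genes the count of higher genes was 2 without siCONT replicate 1 or 2, and the count of lower genes was 2 without siCONT replicate 1 or 2. Of the intestinal genes, 17 of 57 passed the filter. TFF3, the trefoil peptide of goblet cells, was at least 5.04-fold higher (adjusted p = 0.00203), and CA2, the cytosolic carbonic anhydrase of colonocytes, fell by 0.99 (SE 0.13, adjusted p = 0.00433).

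Of the neuronal and synaptic vesicle genes, many could not be tested: 33 of the 73 members on the array were tested, 10 (30.3%) were higher (5 of them from below background in siCONT) and 1 (3.03%) was lower, and the median log2 difference was 0.41. Over the 26 members measured on all 4 arrays the median was 0.24. BEX2, a brain-expressed X-linked gene, and NEFH, the heavy neurofilament, were at least 3.31-fold (adjusted p = 0.000207) and at least 2.6-fold (adjusted p = 0.000318) higher. ENO2, the neuronal enolase, was at 3.19 and 3.23 on the siCONT arrays and 2.28 and 2.45 on the siUHRF1 + TSA arrays, and it fell by 0.85 (SE 0.10, adjusted p = 0.00346). For neuronal genes the count of higher genes was 5 without siCONT replicate 1 or 2. Of the axon guidance genes, 42 of the 63 members on the array were tested, 11 (26.2%) were higher (3 of them from below background in siCONT) and 2 (4.76%) were lower, and the median log2 difference was 0.15. PLXNB3, a semaphorin receptor, was at -3.98 and -4.04 on the siCONT arrays and -2.38 and -2.30 on the siUHRF1 + TSA arrays, and it rose by 1.67 (SE 0.12, adjusted p = 0.000622), and SEMA4D, a semaphorin, was at -0.79 and -0.83 on the siCONT arrays and -2.41 and -2.30 on the siUHRF1 + TSA arrays, and it fell by 1.55 (SE 0.14, adjusted p = 0.00155). PLXNB3 lay near background in siCONT, and its rise was 0.64 in its lowest setting. EPHB6, a kinase-dead ephrin receptor, was at least 3.69-fold higher (adjusted p = 0.000176). The median of this list was -0.0027 under spike-in scaling. For axon guidance the count of higher genes was 4 without siCONT replicate 1 or 2, 6 without siCONT + TSA replicate 1 or 2 and 7 without siUHRF1 + TSA replicate 1, and the count of lower genes was 1 without siCONT replicate 2 or siUHRF1 + TSA replicate 1 or 2 and 4 without siUHRF1 replicate 1 or 2. Among channel genes, TRPV2 rose by 2.12 (SE 0.23, adjusted p = 0.00275), HCN3 fell by 1.11 (SE 0.15, adjusted p = 0.00499) and TRPV1 fell by 0.87 (SE 0.12, adjusted p = 0.00551), and CACNA1A, below background in siCONT, was at least 3.71-fold higher (adjusted p = 0.00505).

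Interferon response genes moved both ways: 48 of the 62 members on the array were tested, 15 (31.2%) were higher (5 of them from below background in siCONT) and 7 (14.6%) were lower, and the median log2 difference was 0.30. Over the 41 members measured on all 4 arrays the median was 0.26. IFI6, an interferon-induced mitochondrial protein, was at 0.22 and 0.20 on the siCONT arrays and 2.40 and 2.44 on the siUHRF1 + TSA arrays, and it rose by 2.21 (SE 0.09, adjusted p = 0.000105). MX1, an antiviral GTPase, rose by 0.69 (SE 0.09, adjusted p = 0.00475), and SAMD9L rose by 0.72 (SE 0.09, adjusted p = 0.00429). TRIM25, the ubiquitin ligase that activates RIG-I, was at 5.03 and 5.05 on the siCONT arrays and 3.88 and 3.71 on the siUHRF1 + TSA arrays, and it fell by 1.25 (SE 0.10, adjusted p = 0.000907). USP18, which removes ISG15 and dampens the pathway, fell by 1.06 (SE 0.12, adjusted p = 0.00346). ISG15 and IRF1 differed by 0.31 and -0.01 and did not pass. For interferon genes the count of higher genes was 6 without siCONT replicate 1 and 9 without siCONT replicate 2, and the count of lower genes was 2 without siCONT replicate 1 or 2, 3 without siUHRF1 + TSA replicate 2 and 4 without siCONT + TSA replicate 1 or 2. In antigen presentation, 33 of the 38 members on the array were tested, 6 (18.2%) were higher and 7 (21.2%) were lower, and the median log2 difference was 0.06. HLA-DMB, of the peptide-loading complex of class II, was at -2.56 and -2.54 on the siCONT arrays and 0.92 and -0.06 on the siUHRF1 + TSA arrays, and it rose by 2.98 (SE 0.29, adjusted p = 0.00201). HLA-DMA, its partner, and HLA-DPA1 rose by 2.65 (SE 0.33, adjusted p = 0.00433) and 1.97 (SE 0.20, adjusted p = 0.00234). The class I genes HLA-B and HLA-C differed by 0.16 and 0.06, neither of them called. ULBP1 and MICB, ligands of the natural killer receptor NKG2D, fell by 1.599 (SE 0.18, adjusted p = 0.00307) and 0.74 (SE 0.10, adjusted p = 0.00476). The list's median was -0.089 under spike-in scaling and also below 0 with quantile normalization. For antigen presentation the count of lower genes was 3 without siCONT replicate 1 or 2. In the list of NF-kappaB and cytokines, NFKBIE, an inhibitor of NF-kappaB, rose by 0.78 (SE 0.10, adjusted p = 0.00472), and TSLP, an epithelial cytokine below background with both treatments, was at least 1.44-fold lower (adjusted p = 0.00173).

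In the NRF2 and glutathione list, 56 of the 60 members on the array were tested, 14 (25%) were higher (2 of them from below background in siCONT) and 1 (1.79%) was lower, and the median log2 difference was 0.16. GSTM2, a glutathione transferase, was at -4.04 and -3.98 on the siCONT arrays and -2.89 and -2.96 on the siUHRF1 + TSA arrays, and it rose by 1.08 (SE 0.12, adjusted p = 0.00263). Its control level lay near background, and its rise was 0.29 in its lowest setting. AKR1C3 stands on this list too. For NRF2 genes the count of higher genes was 6 without siCONT replicate 1 or 2. Its median was 0.011 under spike-in scaling. Of metallothioneins and zinc transporters, 30 of the 33 members on the array were tested, 7 (23.3%) were higher (1 of them from below background in siCONT) and 1 (3.33%) was lower, and the median log2 difference was 0.30. MT1F, a metallothionein, was at 0.89 and 0.85 on the siCONT arrays and 2.22 and 2.01 on the siUHRF1 + TSA arrays, and it rose by 1.25 (SE 0.11, adjusted p = 0.0013), and MT1G was at least 2.29-fold higher (adjusted p = 5.78e-05), though these paralogs may share signal. For metallothioneins the count of higher genes was 2 without siCONT replicate 1 or 2, 4 without siCONT + TSA replicate 1 or 2 and 14 without siUHRF1 replicate 1 or 2. Lipid genes were mixed. ACSS1, mitochondrial acetyl-CoA synthetase, and ACOX2, a peroxisomal oxidase of bile acid synthesis, were below background in siCONT and at least 5.15-fold (adjusted p = 2.81e-05) and at least 15.5-fold (adjusted p = 0.000168) higher. SPHK2, a sphingosine kinase, rose by 1.15 (SE 0.13, adjusted p = 0.00315).

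In the TGF-beta and BMP pathway, 45 of the 66 members on the array were tested, 11 (24.4%) were higher (6 of them from below background in siCONT) and 3 (6.67%) were lower, and the median log2 difference was 0.06. Over the 35 members measured on all 4 arrays the median was -0.0024. For TGF-beta the count of lower genes was 0 without siCONT replicate 1 or 2 and 1 without siUHRF1 + TSA replicate 2. The median over all tested members turned negative with spike-in scaling (-0.094) and with quantile normalization. ID2, a dominant-negative helix-loop-helix protein, was at -0.14 and -0.18 on the siCONT arrays and 1.81 and 2.18 on the siUHRF1 + TSA arrays, and it rose by 2.16 (SE 0.16, adjusted p = 0.000753). The ligand TGFB1 and the inhibitor SMAD7 rose by 0.82 (SE 0.09, adjusted p = 0.00311) and 0.75 (SE 0.09, adjusted p = 0.00368). In the Notch list, 36 of the 42 members on the array were tested, 12 (33.3%) were higher (2 of them from below background in siCONT) and 3 (8.33%) were lower, and the median log2 difference was 0.13. MFNG, a glycosyltransferase that modifies Notch, was at -2.12 and -2.002 on the siCONT arrays and 0.23 and 0.13 on the siUHRF1 + TSA arrays, and it rose by 2.24 (SE 0.13, adjusted p = 0.000298). HES2, of the family of Notch targets, and NUMBL, a Notch antagonist, rose by 1.09 (SE 0.12, adjusted p = 0.0027) and 1.03 (SE 0.13, adjusted p = 0.00405). The rise of HES2 was 0.49 in its lowest setting. The Notch median was -0.017 under spike-in scaling. For Notch the count of higher genes was 3 without siCONT replicate 1, 4 without siCONT replicate 2 and 7 without siUHRF1 + TSA replicate 2, and the count of lower genes was 0 without siCONT replicate 1 or siCONT + TSA replicate 1 or 2 and 1 without siCONT replicate 2 or siUHRF1 + TSA replicate 1 or 2. The ligand WNT6, below background in siCONT, was at least 6.09-fold higher (adjusted p = 0.00313). FGFR3, a receptor of fibroblast growth factors, rose by 1.10 (SE 0.09, adjusted p = 0.00104). RORA and NFIL3, transcription factors of the circadian clock, fell by 1.49 (SE 0.10, adjusted p = 0.000469) and 1.41 (SE 0.09, adjusted p = 0.000463), and the vitamin D receptor VDR fell by 0.83 (SE 0.09, adjusted p = 0.0024).

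Of the chromatin genes, the clustered histones, which supply replicating chromatin, had these counts: 53 of the 57 members on the array were tested, 2 (3.77%) were higher (1 of them from below background in siCONT) and 13 (24.5%) were lower, and the median log2 difference was -0.41. H4C13 was at 6.40 and 6.34 on the siCONT arrays and 5.39 and 5.50 on the siUHRF1 + TSA arrays, and it fell by 0.92 (SE 0.13, adjusted p = 0.00556). H3C1 went the other way, at 3.29 and 3.22 on the siCONT arrays and 4.25 and 4.38 on the siUHRF1 + TSA arrays, and rose by 1.06 (SE 0.14, adjusted p = 0.00491). H1-1, a linker histone below background in siCONT, was at least 9.23-fold higher (adjusted p = 0.00117). Histone genes are near-identical within a type, so members are uncertain. For histones the count of higher genes was 4 without siUHRF1 replicate 1 or 2, and the count of lower genes was 1 without siCONT replicate 1 or 2, 2 without siUHRF1 + TSA replicate 1, 7 without siCONT + TSA replicate 1 or 2 and 22 without siUHRF1 replicate 1 or 2. The median was -0.65 without siUHRF1 + TSA replicate 2 and -0.15 without siUHRF1 + TSA replicate 1, each from 1 treated array. Of the 17 tested histone deacetylases (sirtuins included), 2 (11.8%) were higher, SIRT6 and HDAC7, a smaller share than the 17.3% of all tested genes. Both calls were lost without siCONT replicate 1 or 2, siCONT + TSA replicate 1 or 2 or siUHRF1 + TSA replicate 1 or 2. In corepressor complexes, MBD3, a subunit of NuRD, rose by 1.09 (SE 0.12, adjusted p = 0.00325), and ING2, a reader of the Sin3 complex, fell by 0.94 (SE 0.11, adjusted p = 0.00378). KDM7A, a histone demethylase, and NSD2, a methyltransferase of H3K36, fell by 1.08 (SE 0.13, adjusted p = 0.00403) and 0.83 (SE 0.09, adjusted p = 0.00276). In the DNA methylation machinery, TET1, the dioxygenase of 5-methylcytosine, was below background in siCONT and at least 4.01-fold higher (adjusted p = 0.000299), whereas DNMT1 (-0.08, adjusted p = 0.533), DNMT3A (0.46, adjusted p = 0.29) and DNMT3B (0.36, adjusted p = 0.261) did not pass. Among DNA repair genes, POLQ, the polymerase of microhomology-mediated joining, and PARP2 fell by 1.28 (SE 0.14, adjusted p = 0.00251) and 0.74 (SE 0.10, adjusted p = 0.005).

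The study followed 17 genes as silenced in colorectal cancer cells. Of these, 8 of the 17 members on the array were tested, 5 (62.5%) were higher (2 of them from below background in siCONT) and 0 (0%) were lower, and the median log2 difference was 1.09. The study chose them on such cells, so their direction is no independent evidence. IGF2 and RUNX3 exceeded background in siUHRF1 + TSA but on neither siCONT array and so had to be higher, and over the 5 members measured on all 4 arrays the median was 0.92. IGF2, the growth factor, was below background on both siCONT arrays and at least 113-fold higher (adjusted p = 0.000298), and RUNX3, a transcription factor, was at least 1.81-fold higher (adjusted p = 0.00852), a call lost without siCONT replicate 2. CDKN2A was at -1.55 and -1.33 on the siCONT arrays and -0.55 and -0.50 on the siUHRF1 + TSA arrays, SOCS1 at -2.77 and -2.63 on the siCONT arrays and -1.90 and -1.53 on the siUHRF1 + TSA arrays, and DKK1, a WNT antagonist, at -0.96 and -0.84 on the siCONT arrays and 1.505 and 0.15 on the siUHRF1 + TSA arrays. They rose by 0.92, 0.99 and 1.73 (adjusted p = 0.034, 0.0242 and 0.0336), and the calls were lost without siCONT replicate 1 or 2, siCONT + TSA replicate 1 or 2 or siUHRF1 + TSA replicate 1 or 2 for CDKN2A, without siCONT replicate 1 or 2, siCONT + TSA replicate 1 or 2 or siUHRF1 + TSA replicate 2 for SOCS1 and without siCONT replicate 1 or 2, siCONT + TSA replicate 1 or 2 or siUHRF1 + TSA replicate 1 for DKK1. The rise of DKK1 was 2.41 without siUHRF1 + TSA replicate 2 and 1.06 without siUHRF1 + TSA replicate 1. GATA4 (-0.24), NEURL1 (-0.13) and CRABP1 (1.19) did not pass. CACNA1G, NEUROG1, SFRP1, SFRP2 and SFRP5 were above background on none of the 8 siRNA arrays, and GATA5, TIMP3 and UCHL1 on 1. For these genes the count of higher genes was 1 without siCONT replicate 2, 2 without siCONT + TSA replicate 1 or 2 and 3 without siCONT replicate 1 or siUHRF1 + TSA replicate 1 or 2.

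Further lists are given by the members that were called whichever array was left out. Higher by this measure were 1 of 79 splicing factors, 2 of 79 factors of RNA polymerase II, 1 of 70 lysosomal genes, 3 of 45 genes of lipid synthesis and 4 of 32 ion channel genes, against 5.08% of all genes tested. Lower were 2 of 62 genes of Polycomb and histone methylation, 2 of 59 of DNA repair, 2 of 25 nuclear receptors and 2 of 32 ion channel genes, against 1.6%. Medians near 0, of which all those above 0 turned negative with spike-in scaling, were found for the respiratory chain (0.12), mitochondrial ribosomal proteins (0.11), the TCA cycle (-0.08), autophagy (0.03) and nuclear import (-0.04). SCD, the stearoyl-CoA desaturase, fell by 0.90 (adjusted p = 0.0103), though not without siCONT replicate 1 or 2. ATF3, a stress-induced factor, fell by 1.54 (SE 0.24, adjusted p = 0.00802), though not without siCONT replicate 1, and PCK2, the mitochondrial enzyme of gluconeogenesis, fell by 0.96 (SE 0.19, adjusted p = 0.0171), though not without siCONT replicate 1 or 2 or siUHRF1 + TSA replicate 1.

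**Figure D4:**
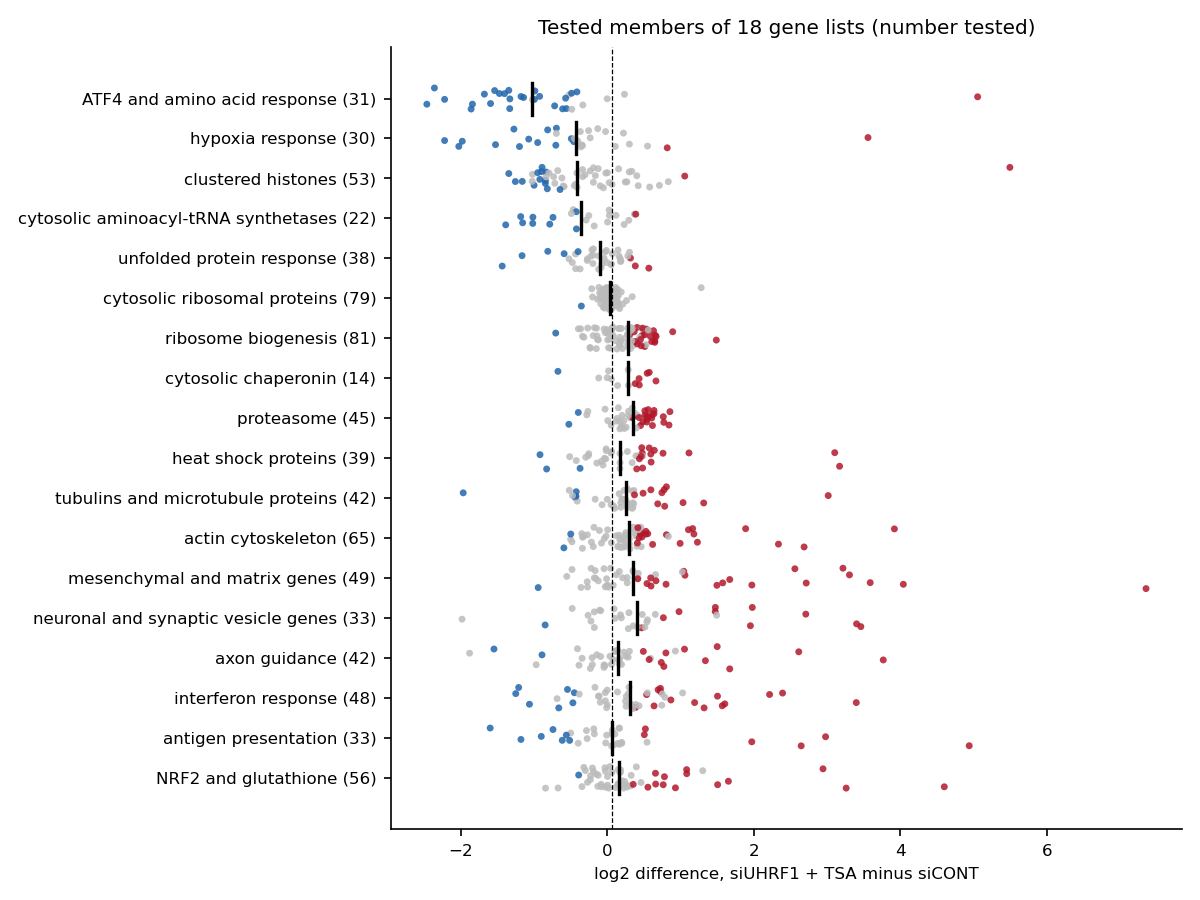
Log2 difference of each tested member (x axis) in 18 of the gene lists (rows, with the number tested), siUHRF1 + TSA minus siCONT. Red members were called higher, blue members lower and grey members not called, black bars are list medians, and the dashed line is the median of all tested genes. The ATF4 genes lie furthest to the left, proteasome genes form a narrow band right of 0, and single members of the matrix, neuronal and antigen presentation lists reach far right.

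Values of the single treatments against the same siCONT arrays are given beside these results as a description, since all 3 comparisons share their controls. The median of the ATF4 genes was -0.0013 in siUHRF1, -0.87 in siCONT + TSA and -1.02 in siUHRF1 + TSA. It was 0.05 in siUHRF1, 0.31 in siCONT + TSA and 0.34 in siUHRF1 + TSA for the proteasome, and -0.13 in siUHRF1, -0.29 in siCONT + TSA and -0.43 in siUHRF1 + TSA for the hypoxia genes. For these lists the combination lay nearer to TSA alone than to UHRF1 depletion alone. For mesenchymal and matrix genes it was 0.03 in siUHRF1, 0.14 in siCONT + TSA and 0.35 in siUHRF1 + TSA, and for neuronal genes 0.10 in siUHRF1, 0.12 in siCONT + TSA and 0.41 in siUHRF1 + TSA. Both lists hold 6 members each that exceeded background in siUHRF1 + TSA but on neither siCONT array, which had to be higher, so these medians are not compared between the treatments. Single genes are given likewise. DDIT3 differed by -0.11 in siUHRF1 and -1.82 in siCONT + TSA, TRIB3 by -0.01 in siUHRF1 and -1.63 in siCONT + TSA, and VIM by -0.37 in siUHRF1 and 2.88 in siCONT + TSA. These genes were near their control level after UHRF1 depletion alone, or slightly below it. HCLS1 differed by 2.79 in siUHRF1 and -0.69 in siCONT + TSA, and LOXL1 by 1.27 in siUHRF1 and -0.0038 in siCONT + TSA. IL18 and TGFBI differed by 2.42 in siUHRF1 and 1.82 in siCONT + TSA and by 1.72 in siUHRF1 and 2.25 in siCONT + TSA, lower in each case than with both treatments. IL20RB differed by 1.15 in siUHRF1 and -4.08 in siCONT + TSA, and CDKN1A by 0.42 in siUHRF1 and -0.43 in siCONT + TSA, with opposite signs for the single treatments in both genes. Whether the combination differs from the sum of both was not tested here.

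**Figure D5:**
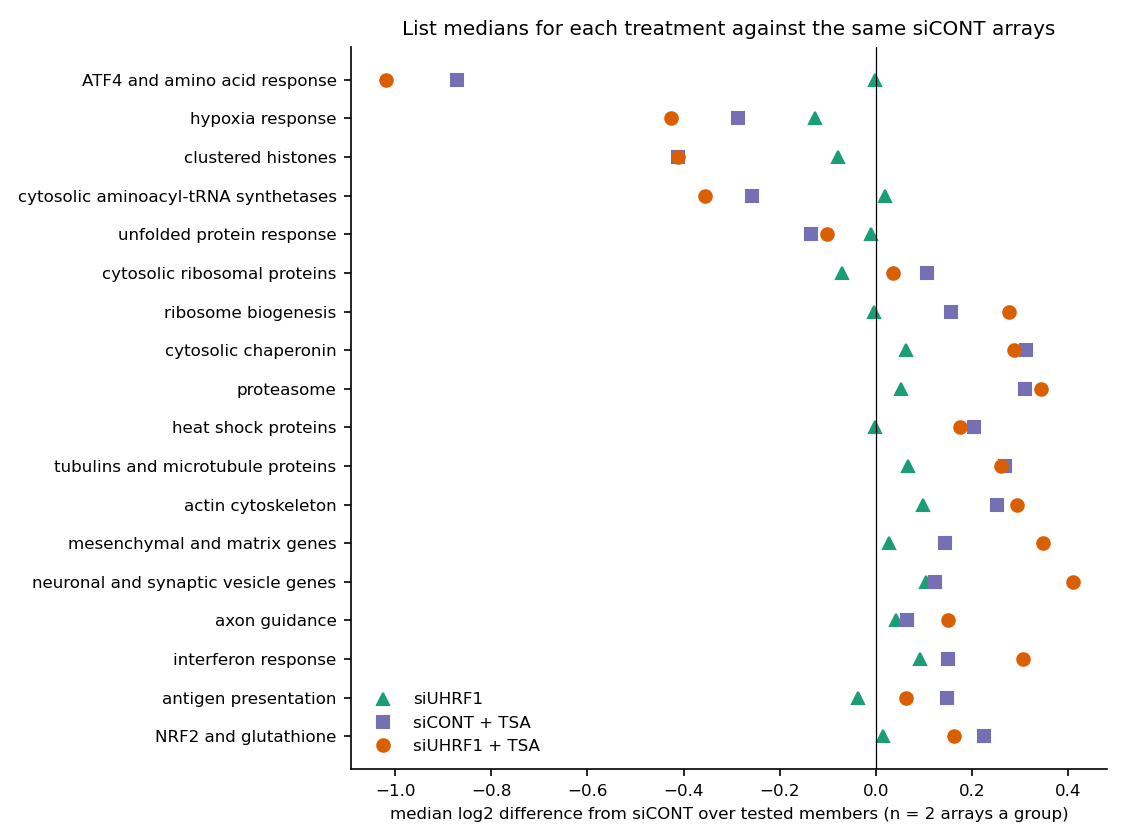
Median log2 difference from siCONT over the tested members of 18 gene lists (rows), for siUHRF1 (green triangles), siCONT + TSA (purple squares) and siUHRF1 + TSA (orange circles). All 3 use the same 2 siCONT arrays. In the ATF4 and proteasome rows the orange and purple points lie close together and the green points near 0. The matrix and neuronal rows include members above background in siUHRF1 + TSA and not in siCONT, which had to be higher there.

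By chromosome, the share of tested genes called higher ranged from 10.4% on chromosome 18 to 23.9% on the X (114 of 477) and 23.7% on chromosome 19 (248 of 1047). The share called lower was 5.45% and 5.73% on these and highest on chromosomes 13 (14.7%) and 4 (14.5%). These shares include the S phase, G2/M and cancer-testis genes and were not tested.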

How the data were processed

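Per the file headers, the 8 siRNA arrays had the same scan date and were read with Agilent Feature Extraction 10.7.3.1. The deposited values used here are its processed signal intensities (background subtracted, 1 colour). Control spots and outlier spots were left out, spots of 1 probe were averaged, and each array's log2 intensity was shifted by its 75th percentile. Probes entered the test if at least 1 of the 4 groups had them well above background on both its arrays, which 23731 of 50599 probes met. Of all probes, 31433 matched 21366 RefSeq genes, 28174 by accession, and a gene is given by its brightest tested probe. RNA was measured in 9 samples. The 8 siRNA arrays entered 1 limma 3.58.1 fit (R 4.3.3) with a mean per group, 2 arrays each, and Benjamini-Hochberg adjustment over the tested probes at 0.05. The 5-aza-dC array was left out.

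Precision was limited by the number of arrays, 2 a group, and 75th percentile signals lay between 245.3 and 337.9. In simulated data for this comparison, log2 changes of 1 were recovered for 26 of 50 probes and changes of 2 for 40 of 50, with 4 false calls over 23731 probes. The simulation changed far fewer probes than were called in the data and gave every group the same spread. Its shares therefore do not carry over to the data. The comparison, its gene lists and the naming rule were chosen with earlier results of these data known. The rule named the 15 largest rises and falls among genes measured on all 4 arrays, apart between groups and called with any array left out, up to 4 in each direction from each of 57 lists (2763 genes) by the same criteria, or up to 2 called in the full fit, and 8 genes always. Other genes, such as ATF4, HIF1A or HLA-B, were named for their role, after their values were seen. Alternatives were other backgrounds, normalizations, filters, designs and tests. A block for slide or scan date could not be fitted, since all 8 arrays share both. Some genes and lists are not reported here.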

Additional observations from a re-analysis of the deposited data

How the results depend on the processing

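The sign of the difference was kept by every gene named by the rule other than CDKN1A in every setting that was run, and the cause of the changes below was not tested. Sizes held less well for genes near background in siCONT. In their lowest settings the rises of GSTM2, PLXNB3 and F2RL2 were 0.29, 0.64 and 1.75, against 1.08, 1.67 and 3.41 in the main fit. Genes given above with a bound also had smaller log2 rises in their lowest settings. These were 4.64 for IGF2, 1.92 for ACOX2, 0.90 for KRT19, 0.76 for EPHB6, 0.63 for BEX2 and 0.61 for JUP, all below the stated bounds. The bounds therefore hold for the main processing only. Many of the named genes were not called in every setting. GSTM2, PLXNB3 and HES2 were among them, and so were HSPA1A, JUP, BEX2, KRT19, TET1, MT1G, TUBB, HCN3, SAMD9L, MX1, SMAD7, HEXIM1, PSMC4 and PSMD3. With normexp background correction, 1190 of the 3626 genes called in the main fit were called with the same sign. The log2 fold change of CDKN1A, 0.0094 and not called, turned to -0.02032 with quantile normalization, -0.01102 with the shift by probes above background, -0.142 with spike-in scaling, and lay between -0.0518 and 0.0706 with 1 array left out. The count of higher genes, 2410, and of lower genes, 1216, became 813 and 386 with normexp background correction, 1107 and 881 with spike-in scaling, 1697 and 663 with no filter on dim probes (more genes tested), 926 and 286 with an unadjusted p and a change over 2-fold, and 150 and 46 with the methods' t-test after Benjamini-Hochberg adjustment. That test also gave UHRF1, at -3.168, an adjusted p of 0.0603. Unadjusted, the methods' t-test gave 3067 and 1597. With 1 array left out, higher genes numbered from 818 (without siCONT replicate 2) to 3285 (without either siUHRF1 array) and lower genes from 273 to 1807. Quantile normalization gave 2149 and 1680. With the replicate block the counts were 2288 and 1184. Deviations of same-numbered arrays in siCONT and siUHRF1 + TSA correlated at 0.0067, so the numbers do not pair these arrays. Those in siUHRF1 and siUHRF1 + TSA, where a number stands for the same siRNA, correlated at 0.456, and the other 4 pairs of groups lay between -0.0401 and 0.0653. In simulated data 1 of 50 probes changed by 0.5 was recovered. Far fewer probes were changed there than were called in the data, so the adjusted threshold was stricter. The share of such changes missed in the data was not estimated.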
